A study of Marchantia polymorpha and Arabidopsis thaliana and Oryza sativa Japonica Group with 80 samples.

Results

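The loci described here are 150 gene numbers of the liverwort Marchantia polymorpha whose transcripts were higher at 2 h of a salt treatment than before it, and closer to the starting level again at 24 h. They were chosen from 7985 eligible gene numbers among the 19755 that the Marchantia tables count. Eligible gene numbers had a mean of at least 5 CPM at 2 h (counts scaled to a library total of 1000000) and lay on no locus named for the Y chromosome. A score ranked them, equal to the difference of mean log2(CPM + 1) between 2 h and 0 h minus the absolute difference between 24 h and 0 h, and the 150 highest scores were taken.

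Marchantia polymorpha is a land plant of the liverwort lineage, and a gemmaling is the young plant that grows from a gemma, a clonal disc of cells. High salt reaches a plant both as osmotic stress, felt at once, and as an excess of sodium, which builds up later. In land plants, many transcripts that appear early after such a stress are short-lived, and regulatory genes are often among them, while slower changes carry the adjustment to the new medium.

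All the Marchantia libraries came from 7-day-old gemmalings of the male wild-type strain Tak1, grown in liquid medium under continuous light, and RNA of the whole plant was sequenced. The second Marchantia experiment, from which the loci were chosen, sampled 0, 2 and 24 h with 3 libraries at each time. The Marchantia time course has 8 times, namely 0, 1, 3 and 6 h, then 12 and 24 h, then 48 and 72 h, with 2 libraries at each. Per the labels' protocol the medium held 100 mM NaCl after 0 h. The sheet that lists the libraries of the second experiment writes the code Crt beside every time and names no salt, so salt there rests on the protocol alone. No untreated library after 0 h is among those used here, so time in culture and salt cannot be told apart. In RNA from whole plants, fewer cells of a type and less RNA per cell cannot be told apart either. The libraries of a time are called biological replicates in the labels, with nothing further on their origin.

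The files pair each gene number with a locus of the Mapoly naming and give no product. None of the 150 names (0 of 150) was found in the RefSeq table of the MpTak2_v7.1 assembly used here, which holds other locus tags. The loci are therefore described by name and level alone, with no role and no sequence. The 150 gene numbers lay on 150 different loci, and 1 of them shared its locus with another gene number, against 378 of the 7985 eligible ones.

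Depth was 7903835 to 11475449 counted reads per library in the second experiment and 18569851 to 24860700 in the time course. In the second experiment, the replicate 1 libraries of all 3 times had 26.6% to 27.6% unmapped reads and the other 6 had 10.9% to 12.6%. Each of the 9 libraries of that experiment was most like a library of its own time, over 9423 loci outside the 150.

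The labels of the time course did not match its libraries in this way. Over 9549 loci outside the 150, with r of log2(CPM + 1) as the measure, 0 of the 16 libraries had the other library of its own time as its nearest. All 16 instead formed 8 pairs in which each library was the other's nearest. The r within those pairs was 0.995 to 0.998, and the r between the libraries that share a time label was 0.867 to 0.975. The 8 pairs were 0 h replicate 1 with 48 h replicate 1, 1 h replicate 1 with 72 h replicate 1, 3 h replicate 1 with 0 h replicate 2, 6 h replicate 1 with 1 h replicate 2, 12 h replicate 1 with 3 h replicate 2, 24 h replicate 1 with 6 h replicate 2, 12 h replicate 2 with 48 h replicate 2, and 24 h replicate 2 with 72 h replicate 2. The map of r between the libraries shows these pairs as bright cells away from the diagonal. In the order of the deposited sheets, the libraries of 6 of these pairs stood 6 sheets apart and those of the other 2 pairs stood 2 sheets apart. Which label belongs to which library was not tested, and the libraries were not regrouped. Each library of the course is called below by its label, and its values are given in the order of the deposited sheets.

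**Figure D1:**
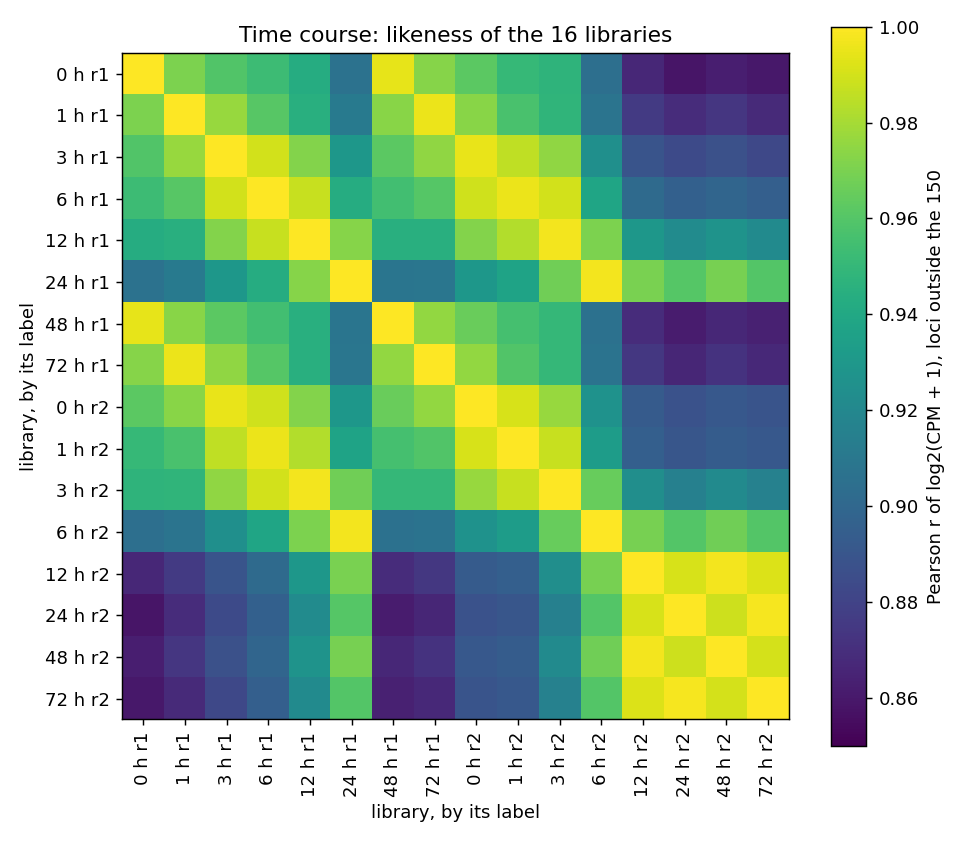
Pearson r of log2(CPM + 1) between the 16 libraries of the time course over 9549 loci outside the 150, on a colour scale of 0.85 to 1, with libraries in sheet order on both axes (r1 and r2 are replicates 1 and 2). The bright cells off the diagonal join libraries with different time labels, at an r of 0.995 to 0.998.

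In the second experiment the 150 loci took 0.240% to 0.288% of the counted reads at 0 h, 1.05% to 1.18% at 2 h and 0.327% to 0.353% at 24 h. Their summed level was 2476, 2402 and 2884 CPM in the 3 libraries of 0 h. It was 10472, 11808 and 10846 CPM in the libraries of 2 h. It was 3289, 3274 and 3535 CPM in the libraries of 24 h. The sums at 2 h stood well apart from those of both other times, and the sums at 24 h were all above those at 0 h. These values come from the libraries that chose the loci, so they are given as a description and without a test.

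The median locus had a mean of 2.44 CPM at 0 h, 29.8 CPM at 2 h and 5.85 CPM at 24 h. Means at 2 h ranged from 5.05 to 766 CPM, and 37 of the 150 loci reached 100 CPM or more. At 0 h, 54 of the 150 had a mean under 1 CPM and 5 had 100 CPM or more. Most of the loci were thus weakly expressed before treatment and moderately expressed at 2 h.

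The difference between 2 h and 0 h in mean log2(CPM + 1) had a median of 2.58 over the 150 loci and 0.04 over the eligible ones, and ran from 1.06 to 7.35. It was at least 2 in 106 loci, at least 3 in 44, at least 4 in 17 and at least 5 in 10. The pseudocount of 1 CPM holds these differences down for the loci that were near 0 before treatment. Between 24 h and 0 h the median difference was 0.62, against 0.10 over the eligible loci, and the range was -0.80 to 3.73. The return was therefore incomplete for many of the loci: 49 of the 150 stood at least 1 log2 unit above 0 h at 24 h, 59 were within 0.5 and 22 were below their 0 h level.

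All 3 libraries of 2 h were above all 3 of 0 h for 149 of the 150 loci, a property of the choice, where the eligible loci gave 21.1%. At 24 h all 3 libraries were below all 3 of 2 h for 143 of the 150, where the eligible loci gave 27.5%. The libraries of 24 h were all above those of 0 h for 87 of the 150, where the eligible loci gave 35.1%, and all below them for 4, where the eligible loci gave 25.4%. The rule used all 3 contrasts, so nothing is read from these counts.

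**Figure D2:**
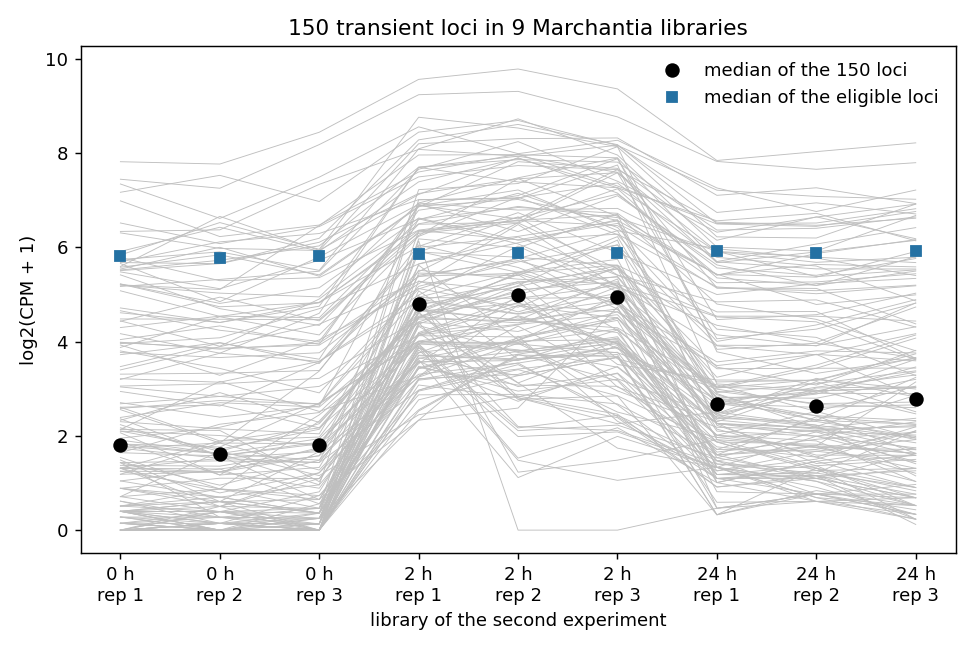
log2(CPM + 1) of the 150 loci in the 9 libraries of the second experiment (grey lines, 1 per locus, joined only to follow a locus), with the median of the 150 (black circles) and of the 7985 eligible loci (blue squares) in each library. The black circles stand highest in the 3 libraries of 2 h, while the blue squares stay level.

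The 10 loci with the highest score had means of 0 to 1.56 CPM at 0 h. Mapoly0054s0040, the first of them, had 0.318, 0 and 0.0946 CPM in the libraries of 0 h, 71.6, 62.6 and 103 CPM at 2 h, and 3.67, 1.93 and 1.05 CPM at 24 h. Its log2 difference was 6.12 (SE 0.24) between 2 h and 0 h and 1.43 (SE 0.36) between 24 h and 0 h, and the libraries of the 3 times did not overlap. Mapoly0061s0005 had 1.38, 0.833 and 0.379 CPM at 0 h, 128, 130 and 214 CPM at 2 h, and 7.59, 6.84 and 4.53 CPM at 24 h. Its libraries also fell into 3 separate ranges, in the order 0 h, 24 h, 2 h.

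Mapoly1171s0002 and Mapoly1171s0001, neighbours on scaffold 1171, had the most complete return among the first 5 loci. Mapoly1171s0002 had 0, 0.104 and 0 CPM at 0 h, 24.2, 21.0 and 39.2 CPM at 2 h, and 0.380, 0.526 and 0.436 CPM at 24 h. Mapoly1171s0001 had 0, 0.104 and 0.189 CPM at 0 h, 29.6, 29.3 and 35.6 CPM at 2 h, and 1.52, 1.05 and 0.174 CPM at 24 h, where its lowest library lay below its highest of 0 h. Mapoly0097s0034 had no read in any library of 0 h, then 63.0, 74.3 and 93.4 CPM at 2 h and 3.80, 3.50 and 2.27 CPM at 24 h.

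Mapoly0087s0018 had the largest difference of all 150 loci between 2 h and 0 h, 7.35 (SE 0.28), and also the largest that remained at 24 h, 3.73 (SE 0.10). It had 0.106, 0 and 0.0946 CPM at 0 h, 122, 177 and 237 CPM at 2 h, and 13.3, 14.6 and 11.6 CPM at 24 h. Mapoly0003s0041 was close to it, with a mean of 0.807 ± 0.165 CPM at 0 h, 197 ± 72.5 CPM at 2 h and 11.1 ± 1.91 CPM at 24 h (SD, n = 3 each). Both loci were far down at 24 h compared with 2 h and still many times above 0 h.

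Mapoly0046s0058 differed from these in its full return and in its spread. It had 2.12, 1.98 and 0.568 CPM at 0 h, 19.7, 35.5 and 70.3 CPM at 2 h, and 1.01, 1.75 and 2.35 CPM at 24 h, so that the libraries of 24 h overlapped those of 0 h. Mapoly0002s0223 averaged 0.167 ± 0.157 CPM at 0 h, 39.3 ± 15.9 CPM at 2 h and 2.18 ± 0.775 CPM at 24 h (SD, n = 3 each). Mapoly0054s0039, the neighbour of the first-ranked locus, averaged 0.305 ± 0.0185 CPM at 0 h, 56.0 ± 11.4 CPM at 2 h and 4.19 ± 2.01 CPM at 24 h (SD, n = 3 each). The plot of these 10 loci by time shows the libraries of 2 h above all others for each of them.

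**Figure D3:**
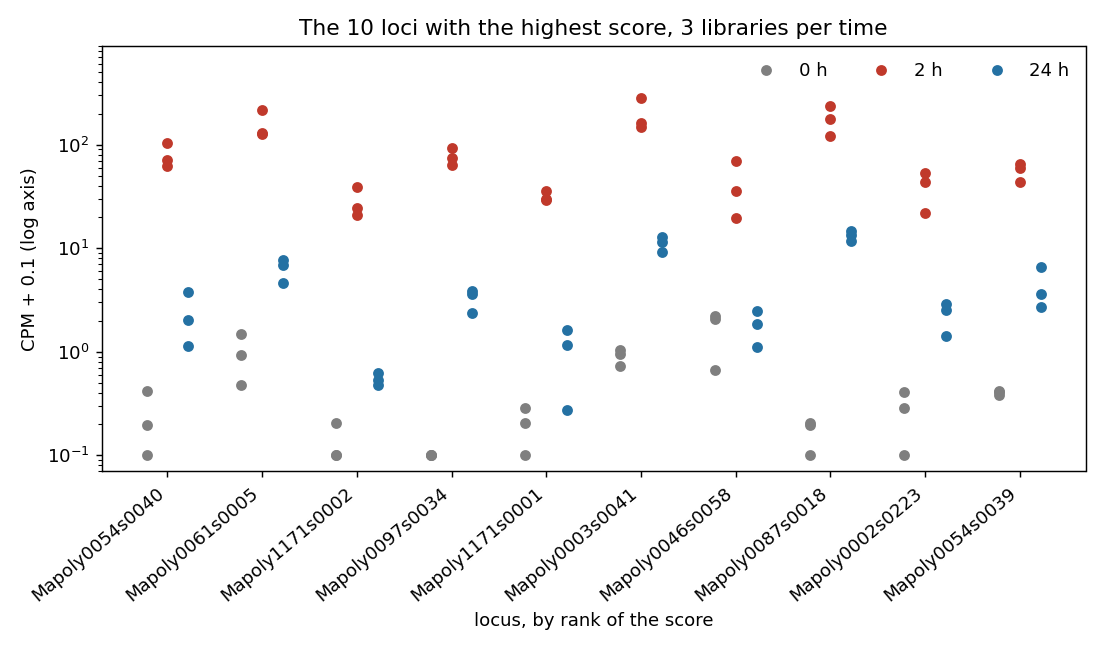
CPM + 0.1 on a log axis for the 10 loci with the highest score, in order of rank, with 1 point per library at 0 h (grey), 2 h (red) and 24 h (blue) of the second experiment. All points of 2 h lie above all points of 0 h and 24 h of the same locus, and for Mapoly0046s0058 the points of 24 h overlap those of 0 h.

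For 9 of the 150 loci no read was counted in any of the 3 libraries of 0 h, so their fold has only a lower bound, taken against 3 reads over the 3 libraries (0.101 CPM) and covering counting error only. Mapoly0097s0034, with 2474 reads at 2 h, was at least 765-fold higher at 2 h. Mapoly0022s0047 had 1696 reads at 2 h and was at least 524-fold higher. For the other 7 (Mapoly0059s0011, Mapoly0035s0084, Mapoly0035s0092, Mapoly0027s0114, Mapoly0025s0040, Mapoly0025s0039 and Mapoly0312s0001) the bound was 60.6-fold to 107-fold.

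The 5 loci with the highest mean CPM at 2 h, a value not scaled to gene length, were expressed before treatment. They changed by a smaller factor than the bounds given above for the loci without a read at 0 h. Mapoly0036s0021 had 225, 217 and 347 CPM at 0 h, 757, 882 and 658 CPM at 2 h, and 229, 261 and 297 CPM at 24 h. Mapoly0014s0093 had 173, 152 and 289 CPM at 0 h, 604, 634 and 436 CPM at 2 h, and 226, 201 and 222 CPM at 24 h. For both, the libraries of 24 h lay within the range of those of 0 h, and their log2 differences between 2 h and 0 h were 1.56 (SE 0.25) and 1.48 (SE 0.33).

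Mapoly0028s0085 averaged 69.6 ± 18.9 CPM at 0 h, 361 ± 76.6 CPM at 2 h and 88.8 ± 27.1 CPM at 24 h (SD, n = 3 each). Mapoly0089s0042 averaged 150 ± 30.2 CPM at 0 h, 349 ± 63.6 CPM at 2 h and 137 ± 9.52 CPM at 24 h (SD, n = 3 each). Mapoly0093s0072 averaged 55.4 ± 14.8 CPM at 0 h, 330 ± 53.0 CPM at 2 h and 97.5 ± 12.6 CPM at 24 h (SD, n = 3 each). Of these 5, Mapoly0093s0072 had the largest remaining difference at 24 h, 0.83 (SE 0.23), and Mapoly0089s0042 was slightly below its 0 h level, at -0.12 (SE 0.17).

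The limit of the rule fell in a continuous range of scores. The last 3 loci inside it were Mapoly0002s0164, Mapoly0097s0009 and Mapoly0033s0008, with scores of 1.03. The first 3 outside it were Mapoly0001s0233, Mapoly0090s0052 and Mapoly0125s0009, with scores of 1.02, 1.01 and 1.00. The loci inside had log2 differences of 1.59, 2.79 and 1.60 between 2 h and 0 h, and those outside had 1.30, 1.91 and 1.25. Mapoly0097s0009 entered with a difference of 1.77 at 24 h, so a locus near the limit can have a large rise with a partial return or a smaller rise with a full one.

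The libraries of 2 h were spread apart for many of the 150 loci. The median coefficient of variation between the 3 libraries was 29.3% over the 150 and 12.2% over the eligible loci. The highest of the 3 was replicate 1 for 35 loci, replicate 2 for 54 and replicate 3 for 61. In 15 loci replicate 1 was more than 2 times as high as either other library, and the same was true of replicate 2 in 4 loci and of replicate 3 in 2. These counts by replicate were not made over the eligible loci, so they are not read as particular to the 150.

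Mapoly0106s0033, chosen here after its values were seen, entered on a single library. It had 671 reads in replicate 1 of 2 h and 0 reads in the other libraries of 2 h, and 0 to 3 reads in each library of 0 h, 3 to 8 in each of 24 h. It is the 1 locus whose libraries of 2 h and 0 h overlapped. Mapoly0025s0039 was also led by replicate 1, at 20.2 CPM, with 3.59 and 3.33 CPM in replicates 2 and 3. With the replicate 1 libraries of all times left out, an alternative added after the data were seen, 125 of the 150 loci were still chosen, and the median difference between 2 h and 0 h was 2.51.

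Part of the 150 loci lay next to each other. Locus names carry a scaffold and a number along it, and 32 of the 150 loci (21.3%) had another of the 150 at the next locus number. Among the 7835 other eligible loci, 95 (1.21%) had one of the 150 at the next number. Within 5 locus numbers the counts were 49 of 150 (32.7%) and 491 of 7835 (6.27%). The 150 spread over 81 scaffolds and formed 15 runs of adjacent loci. Scaffolds 0009 and 0035 held 6 each, of 118 and 73 eligible loci, and scaffold 0119 held 5 of 24. These shares are a description and were not tested. The line for reads that map to several places is 0 in every library, so how reads of near-identical neighbours were shared cannot be seen, and their values are uncertain to that extent.

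The longest runs held 3 loci. In the first, Mapoly0119s0008 averaged 2.75 ± 0.885 CPM at 0 h, 19.7 ± 3.05 CPM at 2 h and 3.68 ± 0.329 CPM at 24 h (SD, n = 3 each). Mapoly0119s0009 averaged 1.81 ± 0.746 CPM at 0 h, 35.4 ± 6.35 CPM at 2 h and 6.29 ± 0.301 CPM at 24 h. Mapoly0119s0010 averaged 0.243 ± 0.249 CPM at 0 h, 36.5 ± 10.8 CPM at 2 h and 2.48 ± 0.812 CPM at 24 h. Their log2 differences between 2 h and 0 h were 2.48 (SE 0.23), 3.71 (SE 0.26) and 4.89 (SE 0.29), and the libraries of 2 h overlapped those of no other time in any of the 3.

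The other run of 3, Mapoly0035s0084 to Mapoly0035s0086, belongs to a longer stretch of loci with the same time pattern. Mapoly0035s0084 had no read at 0 h, 4.76, 12.1 and 11.9 CPM at 2 h and 0.253, 0.701 and 0.349 CPM at 24 h. Mapoly0035s0085 averaged 0.0354 ± 0.0613 CPM at 0 h, 10.2 ± 2.91 CPM at 2 h and 0.639 ± 0.738 CPM at 24 h (SD, n = 3 each). Mapoly0035s0086 averaged 0.0347 ± 0.0601 CPM at 0 h, 8.73 ± 2.95 CPM at 2 h and 0.547 ± 0.0552 CPM at 24 h (SD, n = 3 each). All 3 were at or next to 0 before treatment and again at a low level at 24 h.

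Between locus numbers 82 and 92 of that scaffold 6 loci were among the 150, the others being Mapoly0035s0082, Mapoly0035s0089 and Mapoly0035s0092. Between them lay 4 loci with 51 to 152 reads at 2 h and a mean under 5 CPM, Mapoly0035s0083, Mapoly0035s0087, Mapoly0035s0088 and Mapoly0035s0091, named here after their values were seen. Mapoly0035s0083 had 0 reads at 0 h, 150 at 2 h and 13 at 24 h over the 3 libraries of each time. Mapoly0035s0087 had 2, 152 and 18 reads, Mapoly0035s0088 had 0, 64 and 1, and Mapoly0035s0091 had 0, 51 and 3. They showed the course of their neighbours at a level below the limit of the rule. Of the remaining gene numbers in the stretch, both at Mapoly0035s0090, 1 had no read and 1 had 2 reads, all at 2 h. Beyond the stretch, Mapoly0035s0080 averaged 409 ± 80.3 CPM at 0 h, 539 ± 41.6 CPM at 2 h and 1253 ± 104 CPM at 24 h (SD, n = 3 each) and was highest at 24 h. On the other side, Mapoly0035s0095 averaged 327 ± 4.56 CPM at 0 h, 307 ± 9.70 CPM at 2 h and 246 ± 3.90 CPM at 24 h (SD, n = 3 each).

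**Figure D4:**
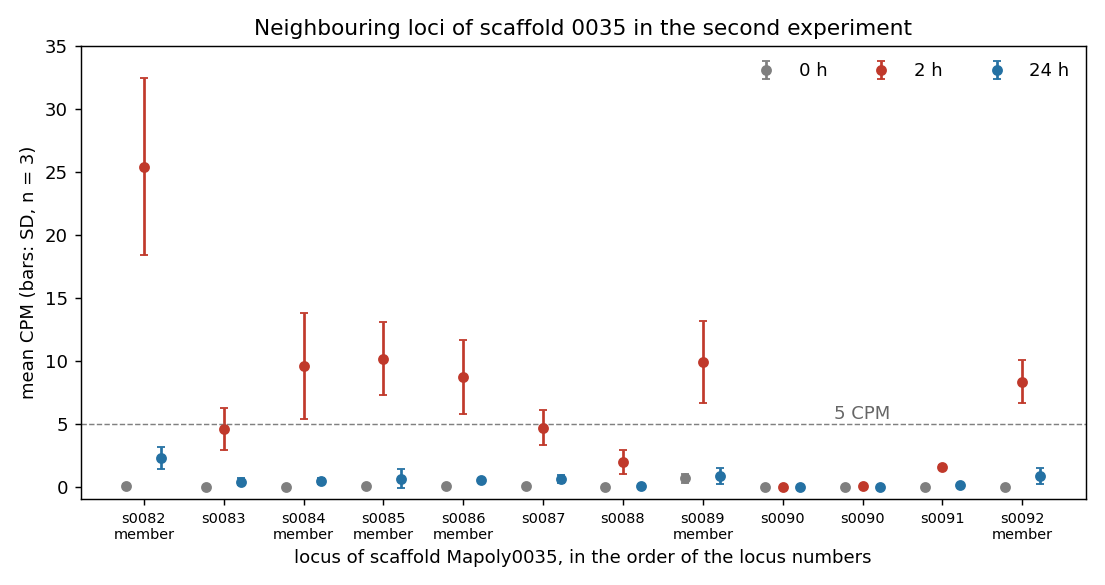
Mean CPM with SD (n = 3) at 0 h (grey), 2 h (red) and 24 h (blue) of the second experiment for the gene numbers at loci 82 to 92 of scaffold 0035, in the order of their numbers (the axis is not a genome distance). The 6 loci marked as members stand above the 5 CPM line at 2 h, and 4 unmarked ones, at 1.59 to 4.69 CPM, lie below it.

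The next runs by rank were pairs. Mapoly0054s0039 and Mapoly0054s0040, and Mapoly1171s0001 and Mapoly1171s0002, are described above among the first 10 loci. Mapoly0046s0059, next to Mapoly0046s0058, had 2.44, 2.08 and 0.946 CPM at 0 h, 9.73, 15.3 and 30.2 CPM at 2 h, and 1.14, 1.40 and 1.48 CPM at 24 h. Both loci of this pair were highest in replicate 3 of 2 h and lowest in replicate 1, and at 24 h the libraries of both overlapped those of 0 h.

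The time course holds libraries that did not choose the loci. There the 150 loci varied widely between libraries, with a median range of 4.05 log2 units from the lowest to the highest library, against 1.06 over the eligible loci. Their summed level in replicate 1 was 2452 CPM in the library labelled 0 h, then 10595, 11962, 11551, 7987, 7326, 2297 and 11066 CPM in those labelled 1 to 72 h in time order. In replicate 2 it was 12229 CPM in the library labelled 0 h, then 11998, 8341, 6901, 11374, 7396, 12060 and 7586 CPM in those labelled 1 to 72 h in time order. The libraries labelled 0 h replicate 1 and 48 h replicate 1 were low, at the level of 0 h in the second experiment. The other 14 held 6901 to 12229 CPM.

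Of the 150 loci, 119 (79.3%) had their lowest value in one of those libraries, labelled 0 h replicate 1 and 48 h replicate 1, where 29.0% of the eligible loci had theirs. The libraries that share the 0 h label differed strongly. The library labelled 0 h replicate 2 was higher than the library labelled 0 h replicate 1 for 147 of the 150 loci, by a median of 2.45 on the log2(CPM + 1) scale. Over the eligible loci that median was 0.05. The difference within the 0 h label was therefore about as large as the 2.58 that chose the loci between 2 h and 0 h of the second experiment. The libraries labelled 48 h differed too, with replicate 2 above replicate 1 for 121 of the 150 loci by a median of 1.08, where the eligible loci gave 0.13.

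With libraries grouped by their labels, none of the 150 (0 of 150) was called changed between labels. The libraries that share a label were not alike, so these calls do not show whether the loci changed with time. All 150 loci passed the filter on low counts. edgeR's quasi-likelihood test, with Benjamini-Hochberg adjustment over the 11257 loci tested, called 0 of the 150 higher and 0 lower in each of the 7 later times against 0 h, and in 24 h against 1 h and 3 h. Over all loci tested it called 0 as well, or 0%. DESeq2 called 0 of the 150 in each of these comparisons, and 0 to 2 of all loci. The comparisons with 0 h share the same 2 libraries of 0 h.

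At an unadjusted p below 0.05 by edgeR, in either direction, 0 to 13 of the 150 passed in the fit to all times. At 1 h it was 0, where 1.07% of all loci tested passed, and at 3 h it was 0, where 0.844% passed. At 6 h it was 1 (2.01% of all loci), at 12 h 2 (3.78%) and at 24 h 4 (11.3%). At 48 h it was 12 (1.19% of all loci) and at 72 h 1 (2.23%). For 24 h against 1 h it was 13 (6.54% of all loci) and for 24 h against 3 h it was 1 (3.1%). The share of the 150 was above that of all loci in 2 of the 9 comparisons, 48 h against 0 h and 24 h against 1 h.

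These unadjusted counts depended on the fit, while the adjusted count among the 150 was 0 in each. DESeq2 gave 0 to 73 of the 150, where 1.41% to 19.3% of all loci passed, with a share above that of all loci in 4 of the 9 comparisons. Its 73 came at 48 h against 0 h, 22 higher and 51 lower. In that comparison 4.15% of all loci passed, 357 higher and 110 lower. At 24 h against 1 h it had 3 of the 150 higher and 41 lower. Of all loci 14.6% passed there, 719 higher and 920 lower. With only the 2 times of a comparison fitted, edgeR gave 0 to 97 of the 147 to 150 that passed the filter on low counts, where 0.233% to 25.9% of all loci passed, with a share above that of all loci in 5 of the 9. There 28 of the 150 were higher and 66 lower at 24 h against 1 h. Of all loci 23% passed, 1150 higher and 1306 lower. At 24 h against 3 h, 26 of the 150 were higher and 71 lower. Of all loci 24.1% passed, 1194 higher and 1354 lower. With the replicate number as a block it gave 0 to 35, where 1.23% to 25.5% of all loci passed, with a share above that of all loci in 1 of the 9. Its 35 came at 24 h against 0 h, 22 higher and 13 lower. Of all loci 25.5% passed there, 1264 higher and 1607 lower. With 2 libraries per label that are not alike, these tests speak of the labels as deposited and not of the times.

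The median fitted log2 fold change of the 150 against 0 h, as labelled, was 0.74 for 1 h, 0.40 for 3 h, 0.43 for 6 h, -0.12 for 12 h, -0.51 for 24 h, -1.34 for 48 h and 0.24 for 72 h. It was -1.43 for 24 h against 1 h and -1.20 for 24 h against 3 h. Over all loci tested, these medians lay between -0.02 and 0.02. Each median against 0 h hung on which library stood for 0 h. Without the library labelled 0 h replicate 2 they were 2.75, 2.88, 2.72, 2.77, 2.46, 1.27 and 2.65 in the same order of times. Without the library labelled 0 h replicate 1 they were -0.01, -0.23, -0.23, -0.66, -1.21, -2.16 and -0.46. The lone remaining library was then taken to vary like the other groups, and 0 of the 150 was called in either case.

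Single libraries of the later times moved some of these medians too. Without replicate 2 of the later time the median was 0.21 for 1 h, 0.67 for 3 h, 0.76 for 6 h, 0.07 for 12 h and -2.07 for 48 h. Without replicate 1 of the later time it was 0.11 for 3 h, -0.59 for 6 h, -1.21 for 12 h, -0.93 for 24 h and -1.09 for 72 h. Other medians against 0 h stayed near those of the fit to all libraries. Without replicate 1 of the later time they were 0.73 for 1 h and -1.24 for 48 h. Without replicate 2 of the later time they were -0.44 for 24 h and 0.31 for 72 h. For 24 h against 1 h the median was -0.69 without 1 h replicate 2. For 24 h against 3 h it was -0.70 without 3 h replicate 1.

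Followed library by library, the 150 loci did not share one pattern. For 108 of them (72%) the highest and the second-highest library were one of the 8 pairs of mutual nearest libraries, as for 54.6% of the eligible loci. Of the 150, 4 such pairs took 98: 32 loci were highest in the libraries labelled 1 h replicate 1 and 72 h replicate 1, 30 in 12 h replicate 2 and 48 h replicate 2, 25 in 1 h replicate 2 and 6 h replicate 1, and 11 in 0 h replicate 2 and 3 h replicate 1. The same pairs were highest for 8.22%, 5.12%, 3.98% and 3.09% of the eligible loci. The remaining 52 loci were spread over 26 other combinations. These groups were formed on the values of the course, so their levels there are a description.

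The 32 loci highest in the libraries labelled 1 h replicate 1 and 72 h replicate 1 are shown by Mapoly0046s0058. In replicate 1 it had 1.89, 325, 115, 47.7, 11.3, 7.75, 3.37 and 345 CPM in the libraries labelled 0 to 72 h, in time order. In replicate 2 it had 126, 57.6, 12.3, 7.12, 3.56, 3.90, 3.07 and 3.26 CPM in the same order. In replicate 1 the level was lower in each next library from that labelled 1 h to that labelled 48 h, and it was high again in that labelled 72 h. In replicate 2 it was highest in the library labelled 0 h and lower in each next one until that labelled 12 h. These orders follow the labels. The library labelled 72 h replicate 1 was most like that labelled 1 h replicate 1 (r 0.996). That labelled 48 h replicate 1 was most like that labelled 0 h replicate 1 (r 0.995). Whether the orders are orders in time was not tested. Mapoly0087s0018 had the same highest libraries, 400 CPM in that labelled 1 h replicate 1 and 435 CPM in that labelled 72 h replicate 1, with 0.291 CPM in that labelled 0 h replicate 1.

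The 25 loci highest in the libraries labelled 1 h replicate 2 and 6 h replicate 1 include 3 of the first 10, among them Mapoly0054s0040. In replicate 1 it had 0.145, 57.3, 168, 324, 90.6, 12.5, 0.553 and 80.6 CPM in the libraries labelled 0 to 72 h, in time order. In replicate 2 it had 218, 403, 105, 11.8, 1.89, 3.67, 2.37 and 3.64 CPM in the same order. Within replicate 1 it was highest in the library labelled 6 h, and within replicate 2 in that labelled 1 h. In the second experiment these 25 loci had a median of 0.139 CPM at 0 h, 11.9 CPM at 2 h and 1.61 CPM at 24 h, and all 25 were above their 0 h level at 24 h. Their median difference between 2 h and 0 h was 3.19, and 15 of the 25 ranked among the first 50.

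The 11 loci highest in the libraries labelled 0 h replicate 2 and 3 h replicate 1 had a median of 44.0 CPM at 0 h, 106 CPM at 2 h and 46.3 CPM at 24 h of the second experiment. Mapoly0093s0072 is one of them. In replicate 1 it had 38.0, 71.3, 178, 131, 145, 131, 35.4 and 66.7 CPM in the libraries labelled 0 to 72 h, in time order. In replicate 2 it had 159, 107, 122, 133, 118, 141, 104 and 125 CPM in the same order. It was low in the libraries labelled 0 h and 48 h of replicate 1 and stayed above 100 CPM in all libraries of replicate 2.

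The 30 loci highest in the libraries labelled 12 h replicate 2 and 48 h replicate 2 followed another course. Mapoly0028s0085 had 43.0, 154, 186, 101, 110, 363, 38.9 and 125 CPM in the libraries labelled 0 to 72 h of replicate 1, in time order. In replicate 2 it had 124, 69.9, 113, 348, 1034, 370, 1141 and 419 CPM in the same order. The highest library was thus labelled 24 h in replicate 1 and 48 h in replicate 2, and those labelled 0 h and 48 h of replicate 1 were the lowest. Mapoly0089s0042 had the same highest libraries, at 884 CPM in that labelled 12 h replicate 2 and 905 CPM in that labelled 48 h replicate 2. In the second experiment these 30 loci had a median of 4.47 CPM at 0 h, 32.3 CPM at 2 h and 10.5 CPM at 24 h.

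Within each group the median differed between libraries. In the libraries labelled 1 h replicate 1 and 12 h replicate 2, the medians were 8.90 and 125 CPM for these 30 loci, 90.05 and 7.56 CPM for the 32, 9.39 and 1.80 CPM for the 25, and 77.1 and 33.2 CPM for the 11. Each group was formed by the libraries in which its loci were highest, so these medians differ between groups by construction and are a description. The loci were chosen for a common pattern at 0, 2 and 24 h in the second experiment. That their highest libraries in the course differed is seen from the group sizes, not from these medians.

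**Figure D5:**
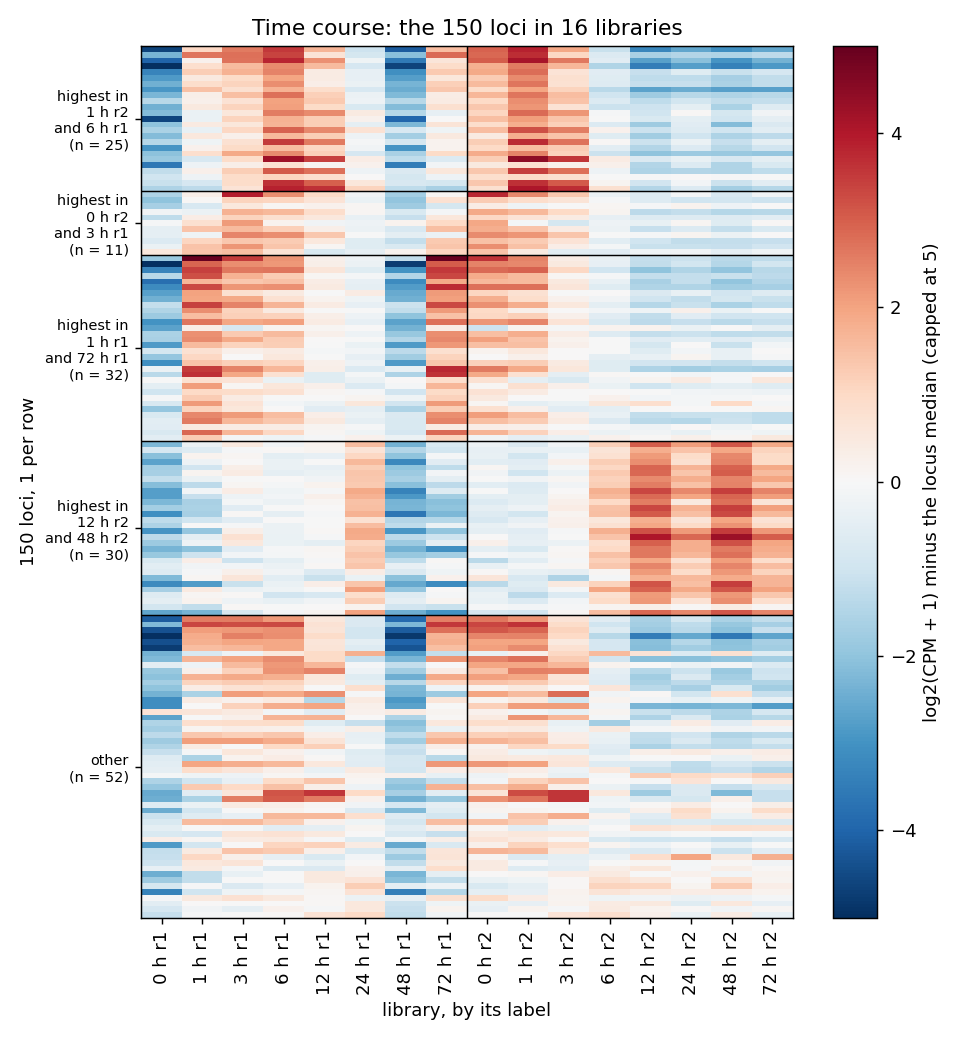
Each row is 1 of the 150 loci and each column 1 of the 16 libraries of the time course in sheet order (r1 and r2 are replicates 1 and 2), coloured by log2(CPM + 1) minus the median of the locus over the 16 libraries, capped at 5. Rows are grouped by the 2 libraries in which the locus was highest, 25, 11, 32, 30 and 52 loci from top to bottom, and the columns labelled 0 h r1 and 48 h r1 are blue for most rows.

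The library of 2 h that held the highest value in the second experiment was counted for each group. The groups were formed on the course, but the values at 2 h had a part in choosing the loci, so the counts are no outside check. Over all the chosen loci, replicate 3 was highest for 61, replicate 2 for 54 and replicate 1 for 35. No such count was made over the eligible loci with the same highest libraries. Of the 30 loci highest in the course libraries labelled 12 h replicate 2 and 48 h replicate 2, 25 were highest in replicate 2 of 2 h, 3 in replicate 1 and 2 in replicate 3. Of the 32 highest in those labelled 1 h replicate 1 and 72 h replicate 1, 21 were highest in replicate 3, 7 in replicate 2 and 4 in replicate 1. Of the 25 highest in those labelled 1 h replicate 2 and 6 h replicate 1, 11 were highest in replicate 1, 10 in replicate 3 and 4 in replicate 2. Of the 11 highest in those labelled 0 h replicate 2 and 3 h replicate 1, 8 were highest in replicate 3, 3 in replicate 2 and 0 in replicate 1. The replicate of 2 h that most often led was therefore replicate 2 in the group of 30 and replicate 3 in the groups of 32 and 11. Loci that move together are not independent, and these counts were not tested.

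Neighbouring loci followed each other in the course. The 17 pairs of adjacent loci among the 150 had a median Pearson r of 0.98 over the 16 libraries, and the 11175 pairs of any 2 of the 150 had a median of 0.45. The lowest r among the adjacent pairs was 0.62, for Mapoly0312s0001 and Mapoly0312s0002, and the highest was 1.00, for Mapoly0119s0009 and Mapoly0119s0010. In 11 of the 17 pairs both loci had the same 2 highest libraries. The points share their libraries and depth, so r is given as a description.

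Strand was not a mark of the 150. At 2 h the median share of their stranded reads that lay on the strand not used for counting was 0.0431%, against 0.0449% over the eligible loci. None of the 150 had over 10% there (0 of 150), and 98 of the eligible loci did.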

How the data were processed

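The deposited values are counts per gene number, 1 sheet per library, with columns for either and for each strand. Per the submitters' processing notes, STAR and the genome TAIR10 are named for every sample; the sources used here do not give versions, the Marchantia reference or the annotation. The opposite-strand column was used without its summary lines, of which the multimapping line is 0 throughout. CPM are counts over the total of counted reads. A deposited sheet matched 19755 of 19755 gene numbers to loci.

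The loci and lists were chosen with earlier results of these data known. The second experiment chose the loci and is described by mean, SD and SE over libraries, without a test. The time course was fitted with edgeR 4.0.16 in R 4.3.3, with DESeq2 1.42.0 as an alternative. The edgeR fit used filterByExpr, TMM, the quasi-likelihood test and 1 coefficient per labelled time, with calls at an adjusted p below 0.05. It was tested on simulated data in which the libraries of a label shared their means. Libraries of a label in the course were not alike, so the simulation does not show what the fit could detect there. p-values set a change against the spread between libraries that share a label, which were not alike in the course. That spread may also be technical, and what it consists of was not tested.

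Same-numbered libraries of the second experiment deviated together (r 0.160 to 0.533 in 9 of 9 pairs), so its numbers pair the libraries. No test there uses them. The SE of a log2 difference there takes the libraries of both times as independent, so it leaves the numbers out as well. In the course 38 of 56 such pairs had r over 0.1, from -0.205 to 0.781. With 2 libraries per label, the deviations of replicate 2 mirror those of replicate 1, so each r is counted for both replicates. The libraries of a label were also not alike, so whether the numbers pair the course libraries cannot be told.

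Named loci are the 10 highest scores, the 5 highest means at 2 h, 3 loci on each side of the limit, 5 runs of adjacent loci, and called or filtered loci of the course, of which there were none. CPM are not scaled to length, so an order of loci by CPM, or a median over them, is one of reads and not of RNA amount.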

Additional observations from a re-analysis of the deposited data

How the results depend on the processing

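No locus of the 150 was called under any of the alternatives run on the time course: DESeq2, no filter on low counts, RLE size factors in place of TMM, the either-strand column, only the 2 times of a comparison fitted, and each library left out. With the replicate block the count stayed at 0. With that block, the median log2 fold change of the 150 moved most at 72 h against 0 h, to -0.08 from 0.24 without it. All these fits grouped the libraries by label, so a count of 0 does not show that the loci were unchanged in time. With only the 2 times fitted, edgeR called 53 loci higher and 129 lower over all loci at 24 h against 0 h, none of them among the 150, where the fit to all times called 0.

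The course medians moved more than the spread between libraries only when 1 library was left out. Their lowest and highest values were -0.0057 and 2.75 for 1 h, -0.23 and 2.88 for 3 h, -0.59 and 2.72 for 6 h, -1.21 and 2.77 for 12 h, -1.21 and 2.46 for 24 h, -2.16 and 1.27 for 48 h, -1.09 and 2.65 for 72 h against 0 h, -1.64 and -0.69 for 24 h against 1 h, and -1.33 and -0.70 for 24 h against 3 h; the cause was not tested beyond naming the library.

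In the second experiment the medians depended on the pseudocount by construction, since many loci start near 0: 2.84 and 2.20 for 2 h against 0 h, and 0.85 and 0.46 for 24 h against 0 h, with 0.5 and 2 CPM added. Leaving out libraries gave 2.49 to 2.64 and 0.61 to 0.66. Membership kept 119 of the 150 loci with a limit of 1 CPM at 2 h, 138 with TMM-scaled CPM, 147 with the either-strand column or a pseudocount of 2, 148 with a pseudocount of 0.5, and 125 to 143 with libraries left out.

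The planned lists of annotated families were not run, because the files used here give no products for the Mapoly loci. At these depths 3 reads over the 3 libraries of 0 h amount to 0.101 CPM.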
